A study of Danio rerio with 9 samples.

Results

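Keratin genes were taken from the gene table by symbol: every gene whose symbol begins with krt followed by a digit or by t1, together with cyt1 and cyt1l, older names of keratin genes. This gave 19 genes of the 27158 in the table, and 17 of them had enough reads to be among the 18453 genes tested. RNA was measured by sequencing in visible thyroid tumors of transgenic zebrafish, 4 from CCDC6-RET fish and 5 from BRAF(V600E) fish. CCDC6-RET is a human fusion of the RET receptor kinase, and BRAF(V600E) is a mutant kinase of the same signaling pathway. Either transgene was driven by the promoter of zebrafish thyroglobulin, the hormone precursor made by thyroid follicular cells, and the CCDC6-RET construct was injected into fish that carry tg:TdTomato, a red fluorescent thyroid reporter. The sample descriptions call the tumors adult. Age, sex, clutch, the manner of dissection and any further genotype of the sequenced fish are not stated in the sources used here. In the study's tumor-free survival curve the BRAF(V600E) fish also carried a p53 mutation. Whether the sequenced BRAF(V600E) tumors carried it is not stated. Nor is it stated that the tumors came from different fish, and the p-values therefore reflect only how far these libraries spread, which may be technical in part. Libraries held between 8662544 and 13596477 counts in CCDC6-RET tumors and between 10656967 and 13354953 in BRAF(V600E) tumors, and no library was a copy of another.

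Keratins are the intermediate filament proteins of epithelial cells. A keratin filament is built from pairs of an acidic type I protein and a basic type II protein, so epithelia express members of both types together. Single-layered and glandular epithelia, the thyroid follicle among them, are known for the simple pair of keratin 8 (type II) and keratin 18 (type I), whereas fish epidermis uses a larger set, of which krt4 marks the outer layers and krt5 the basal cells. The 19 genes were therefore read in 3 groups: 2 simple epithelial keratins (krt8 and krt18), 9 keratins listed as those of skin (krt4, krt5, krt17, krt92, krt1-19d, krt1-c5, cyt1, cyt1l and krtt1c19e) and 8 others for which no site was assumed (krt15, krt91, krt93, krt94, krt95, krt96, krt97 and krt222).

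The simple keratins were kept in CCDC6-RET tumors and nearly every other keratin was far lower there. krt18 was higher in CCDC6-RET tumors, krt8 did not pass the test, and all 8 tested skin keratins and all 7 tested other keratins were lower, which makes 15 of 17 tested keratins lower and 1 higher (quasi-likelihood test in edgeR, with Benjamini-Hochberg adjustment over all genes and a threshold of 0.05). These tumor types differed at most genes: 72.1% of all tested genes passed, 38.2% in the lower direction and 33.9% in the higher. Among the 17 tested keratins the groups did not overlap for 14 that were lower and 1 that was higher, a pattern seen in 35.5% and 29.3% of all tested genes (64.8% in either direction). The median log2 fold change, CCDC6-RET minus BRAF(V600E), was 1.40 for the simple keratins, -7.39 for the skin keratins and -6.54 for the others, beside -0.09 for all tested genes. Many of the lower keratins had too few counts in CCDC6-RET tumors to be tested without the BRAF(V600E) tumors. These were krt17, krt92, krt93, krt96, krt97, krt222, krt1-19d, krt1-c5, cyt1l and krtt1c19e. For them a lower call was close to fixed in advance, and they enter the medians too. krt4, krt5, krt15, krt91 and krt94 had enough counts in either tumor type. In bulk tumors, fewer cells of a type and less RNA per cell cannot be told apart.

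**Figure D1:**
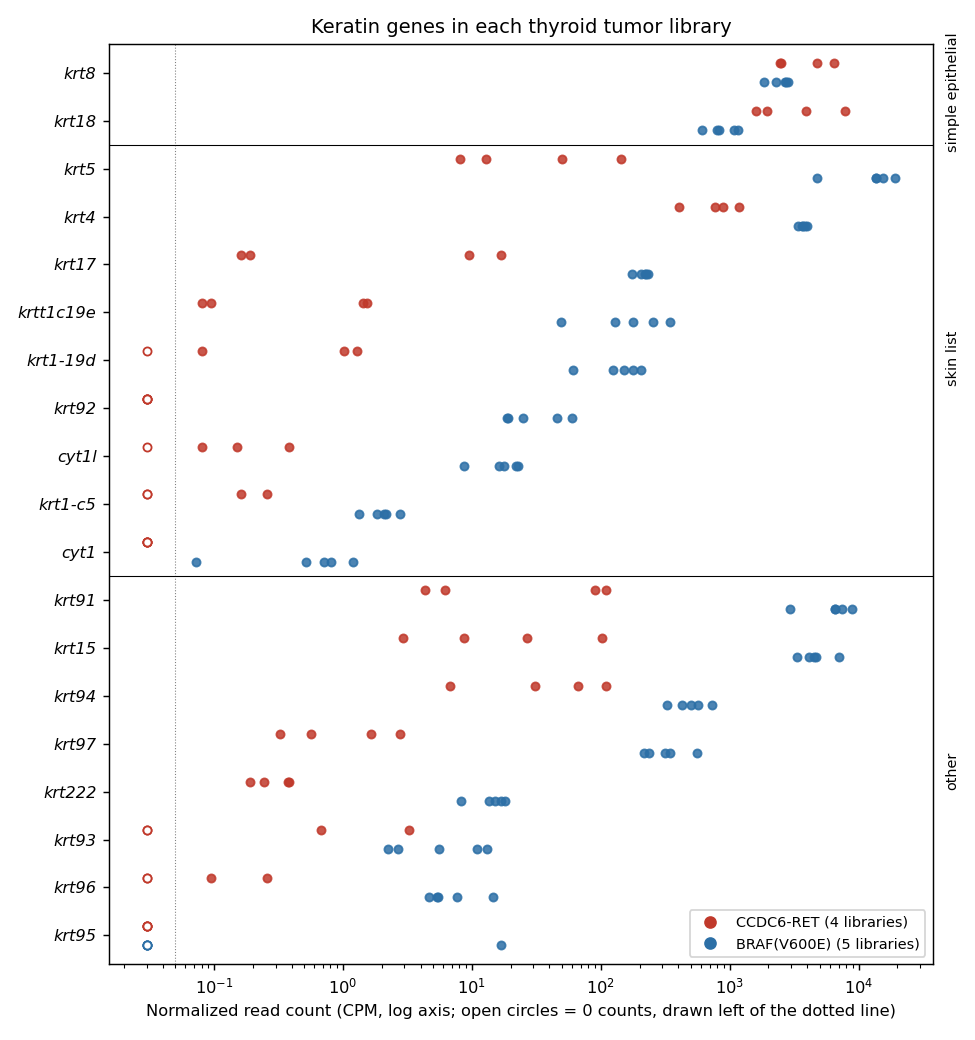
Normalized read count (CPM, log axis) of each keratin gene in each library, CCDC6-RET tumors above BRAF(V600E) tumors in every row; open circles are libraries with 0 counts. The 4 CCDC6-RET points of krt18 lie above the 5 BRAF(V600E) points, those of krt8 overlap them, and those of all 9 skin keratins lie below.

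The simple pair came first in the CCDC6-RET tumors. krt18 (ENSDARG00000018404, chromosome 23, 10412881 to 10416784 in GRCz10), the type I partner of the pair, had 3897, 1965, 1597 and 7799 CPM (counts relative to the TMM-scaled library size) in CCDC6-RET tumors 2, 3, 5 and 6, against 1158, 792, 835, 606 and 1081 CPM in BRAF(V600E) tumors 1, 2, 3, 6 and 7. Every CCDC6-RET tumor lay above every BRAF(V600E) tumor, and tumor 6 was the highest. The mean was 3814 ± 2842 CPM for CCDC6-RET tumors and 895 ± 224 CPM for BRAF(V600E) tumors (SD, n = 4 and 5), a log2 fold change of 2.09 ± 0.44 (SE, edgeR adjusted p = 0.00194), which was 1.49 without tumor 6 (edgeR adjusted p = 0.00268).

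krt8 (ENSDARG00000058358, chromosome 23, 10314656 to 10319318), its type II partner, had 4800, 2491, 2469 and 6406 CPM in CCDC6-RET tumors 2, 3, 5 and 6, against 2708, 1858, 2815, 2292 and 2730 CPM in BRAF(V600E) tumors 1, 2, 3, 6 and 7. CCDC6-RET tumors 3 and 5 lay within the BRAF(V600E) range and the other two above it. It averaged 4041 ± 1919 CPM in CCDC6-RET tumors against 2481 ± 403 CPM in BRAF(V600E) tumors (SD, n = 4 and 5), with a log2 fold change of 0.70 ± 0.29 that missed the threshold (SE, edgeR adjusted p = 0.0536). It passed in 2 of 17 alternative analyses, without CCDC6-RET tumor 3 (0.89, edgeR adjusted p = 0.0199) and without tumor 5 (0.89, edgeR adjusted p = 0.0189). It was smaller without tumor 6 (0.41, edgeR adjusted p = 0.176) and with libraries scaled on ribosomal protein genes (0.15, edgeR adjusted p = 0.706).

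The balance of the pair differed between the tumor types. There were 0.812, 0.789, 0.647 and 1.22 krt18 counts for each krt8 count in CCDC6-RET tumors 2, 3, 5 and 6, against 0.428, 0.426, 0.296, 0.265 and 0.396 in BRAF(V600E) tumors 1, 2, 3, 6 and 7. The groups did not overlap (exact two-sided permutation test, p = 0.00794, the smallest that 4 against 5 allows, and 0.0185 after Benjamini-Hochberg adjustment over the 7 composition measures tested). This ratio was not among the planned measures, and it draws on the same counts as the tests of krt18 and krt8 above. A ratio of counts is not corrected for transcript length, so it compares libraries and not the amounts of the 2 transcripts within 1 library.

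Further KRT18-type genes lie outside the symbol rule. The gene the table calls KRT18 (1 of many) with identifier ENSDARG00000028618, named krt18b in the gene name table, had 320, 327, 473 and 323 CPM in CCDC6-RET tumors, against 245, 183, 312, 207 and 219 CPM in BRAF(V600E) tumors. Each CCDC6-RET tumor lay above the highest BRAF(V600E) tumor, and the log2 fold change of 0.63 ± 0.19 passed the test (SE, edgeR adjusted p = 0.0121). It did not pass with libraries scaled on ribosomal protein genes (0.06, edgeR adjusted p = 0.839), a scaling that moved the median of all tested genes to -0.66. Relative to that median, krt18b, krt8 and krt18 stood at 0.71, 0.81 and 2.18, close to 0.72, 0.79 and 2.18 with TMM. A change of scaling moves all genes by a similar amount, so this closeness follows from the subtraction. It is no further test of these genes.

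Of the skin keratins, krt5 had the most counts in BRAF(V600E) tumors. krt5 (ENSDARG00000058371, chromosome 23, 10238226 to 10242488), the type II keratin of basal epidermis, had 145, 50.3, 12.98 and 8.08 CPM in CCDC6-RET tumors 2, 3, 5 and 6, against 13707, 19257, 15353, 13663 and 4802 CPM in BRAF(V600E) tumors 1, 2, 3, 6 and 7. These values lay far apart, with tumor 7 the lowest of the BRAF(V600E) tumors. Its mean was 247-fold lower in CCDC6-RET tumors, a log2 fold change of -7.95 ± 1.06 (SE, edgeR adjusted p = 1.15e-04). With CCDC6-RET tumor 2 left out, the log2 fold change was -9.10.

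krt4 (ENSDARG00000017624, chromosome 6, 39310962 to 39315491), a type II keratin of the surface layer of fish skin, was the skin keratin with the smallest difference. It had 769, 890, 404 and 1179 CPM in CCDC6-RET tumors 2, 3, 5 and 6, against 3635, 3712, 3840, 3397 and 3995 CPM in BRAF(V600E) tumors 1, 2, 3, 6 and 7. Within BRAF(V600E) tumors the values were close to one another, with a coefficient of variation of 6.04%, and tumor 7, which had the least krt5, had the most krt4. krt4 averaged 810 ± 321 CPM in CCDC6-RET tumors and 3716 ± 225 CPM in BRAF(V600E) tumors (SD, n = 4 and 5), 4.58-fold lower (log2 fold change -2.20 ± 0.27, edgeR adjusted p = 7.08e-05). The 4 CCDC6-RET tumors held between 10.9% and 31.7% of the BRAF(V600E) mean of krt4, but between 0.0605% and 1.08% of that of krt5.

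The remaining skin keratins are type I genes of a cluster on chromosome 19, apart from krt1-c5. krt17, named after a keratin of stressed and appendage epidermis in mammals, had 9.57, 16.8, 0.162 and 0.190 CPM in CCDC6-RET tumors 2, 3, 5 and 6, against 204, 174, 234, 225 and 219 CPM in BRAF(V600E) tumors 1, 2, 3, 6 and 7 (log2 fold change -5.01 ± 1.095, edgeR adjusted p = 0.00233). krtt1c19e, a keratin of basal epidermis in zebrafish, had 1.43, 1.54, 0.0811 and 0.0950 CPM in CCDC6-RET tumors, against 346, 256, 49.4, 179 and 129 CPM in BRAF(V600E) tumors (log2 fold change -7.96 ± 0.93, edgeR adjusted p = 5.08e-05). Within the CCDC6-RET tumors, tumors 2 and 3 held more of both genes than tumors 5 and 6, while no tumor reached the BRAF(V600E) range. The fold change of krt17 was -5.95 without tumor 3, and that of krtt1c19e -8.55 without tumor 2.

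krt1-19d had 1.28, 1.03, 0.0811 and 0 CPM in CCDC6-RET tumors 2, 3, 5 and 6, against 125, 206, 178, 151 and 61.4 CPM in BRAF(V600E) tumors 1, 2, 3, 6 and 7 (log2 fold change -7.91 ± 0.80, edgeR adjusted p = 2.21e-05). cyt1l had 0.151, 0.385, 0.0811 and 0 CPM in CCDC6-RET tumors, against 22.7, 22.01, 17.9, 16.3 and 8.75 CPM in BRAF(V600E) tumors (log2 fold change -6.87 ± 0.58, edgeR adjusted p = 8.34e-06). krt1-c5 had 0, 0.256, 0.162 and 0 CPM in CCDC6-RET tumors, against 2.77, 1.34, 2.08, 2.17 and 1.82 CPM in BRAF(V600E) tumors (log2 fold change -4.301 ± 0.67, edgeR adjusted p = 2.79e-04). In none of the 3 genes did the groups overlap, and at these depths cyt1l and krt1-c5 were near the limit of detection in CCDC6-RET tumors. Without tumor 2 the fold change of krt1-19d was -8.79, and without tumor 3 those of cyt1l and krt1-c5 were -7.56 and -4.96.

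No read of krt92 was counted in any CCDC6-RET tumor, against 18.69, 24.8, 60.1, 18.99 and 46.2 CPM in BRAF(V600E) tumors 1, 2, 3, 6 and 7. With 3 counts over the CCDC6-RET libraries taken as the floor, 0.0683 CPM, krt92 was at least 494-fold lower. cyt1 likewise had 0 counts in every CCDC6-RET tumor, against 0.805, 0.713, 0.520 and 1.19 CPM in BRAF(V600E) tumors 1, 2, 3 and 6 and 0.0729 CPM in tumor 7, 41 counts in all, at least 9.67-fold lower by the same floor, and was too rare to be tested.

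**Figure D2:**
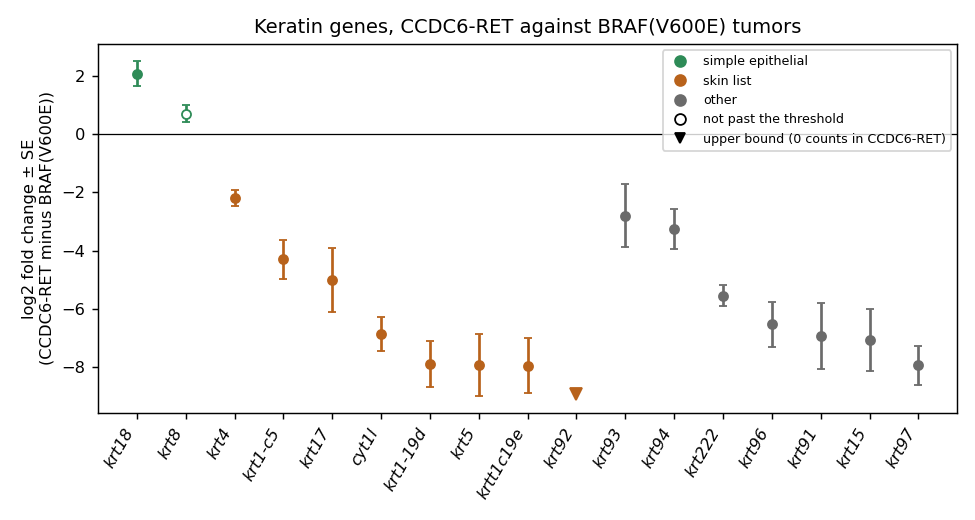
Log2 fold change (CCDC6-RET minus BRAF(V600E), bars are SE from the edgeR fit) of the 17 tested keratins, by group; the open circle is krt8, which did not pass the test, and the triangle is the upper bound of krt92. krt18 at 2.09 is the single keratin above 0 that passed, krt4 at -2.20 is the highest skin keratin, and 5 skin keratins lie below -6.

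Among the 8 other keratins, krt91 and krt15 were the most abundant by count in BRAF(V600E) tumors. krt91, a type I keratin of the chromosome 19 cluster, had 89.9, 110, 4.298 and 6.18 CPM in CCDC6-RET tumors 2, 3, 5 and 6, against 6573, 8833, 7475, 6566 and 2939 CPM in BRAF(V600E) tumors 1, 2, 3, 6 and 7 (log2 fold change -6.95 ± 1.14, edgeR adjusted p = 4.02e-04). krt15, a type I keratin of basal cells of stratified epithelia in mammals, had 26.7, 103, 2.92 and 8.65 CPM in CCDC6-RET tumors, against 4664, 7066, 4549, 4126 and 3341 CPM in BRAF(V600E) tumors (log2 fold change -7.08 ± 1.08, edgeR adjusted p = 2.52e-04). Both were lowest in tumor 7 among the BRAF(V600E) tumors, as krt5 was, and the groups were well separated. Without CCDC6-RET tumor 3 the fold changes were -7.58 for krt91 and -8.52 for krt15.

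krt94 had a smaller difference. It had 31.1, 66.4, 6.73 and 109 CPM in CCDC6-RET tumors 2, 3, 5 and 6, against 330, 500, 730, 567 and 426 CPM in BRAF(V600E) tumors 1, 2, 3, 6 and 7 (log2 fold change -3.26 ± 0.68, edgeR adjusted p = 0.00175). krt97 had 2.79, 1.67, 0.324 and 0.570 CPM in CCDC6-RET tumors, against 219, 317, 343, 557 and 236 CPM in BRAF(V600E) tumors (log2 fold change -7.95 ± 0.67, edgeR adjusted p = 8.01e-06), one of the 3 largest decreases among tested keratins with reads in CCDC6-RET tumors, with krtt1c19e and krt5. The groups did not overlap for either gene. The fold change of krt94 was -3.85 without CCDC6-RET tumor 6, and that of krt97 -8.67 without tumor 2.

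krt222 encodes a keratin-like protein and had 0.377, 0.385, 0.243 and 0.190 CPM in CCDC6-RET tumors, against 13.7, 15.1, 18.03, 17.0 and 8.24 CPM in BRAF(V600E) tumors (log2 fold change -5.56 ± 0.36, edgeR adjusted p = 2.24e-06). krt96 had 3 counts over the CCDC6-RET tumors and 483 over the BRAF(V600E) tumors, and its counts pooled over each group and divided by the pooled library sizes were 114 times higher in BRAF(V600E) tumors than in CCDC6-RET tumors (95% counting interval 38.8 to 556). Its fitted log2 fold change of -6.54 was -7.63 without CCDC6-RET tumor 3. That left 1 count, in CCDC6-RET tumor 6, too few to fix its size. krt93 was the weakest call: it had 0.678, 0, 0 and 3.23 CPM in CCDC6-RET tumors, against 2.24, 13.1, 5.546, 11.001 and 2.699 CPM in BRAF(V600E) tumors, the groups overlapped, and its log2 fold change of -2.80 ± 1.08 (edgeR adjusted p = 0.0396) lost significance in 7 of 17 alternative analyses, those without CCDC6-RET tumor 2, 3 or 5, without BRAF(V600E) tumor 2, 3 or 6, and without CCDC6-RET tumors 2 and 3 together, where its edgeR adjusted p reached 0.171. Without CCDC6-RET tumor 6 it was -4.68. krt95 had no read in any library but BRAF(V600E) tumor 6, which held 241 counts or 16.9 CPM, and was not tested.

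Within the CCDC6-RET tumors the keratins did not move as one. The 9 genes krt5, krt17, krtt1c19e, krt1-19d, cyt1l, krt91, krt15, krt97 and krt222 were each higher in tumors 2 and 3 than in tumors 5 and 6. Of these, krt222 had 5, 3, 3 and 2 counts in tumors 2, 3, 5 and 6, and cyt1l had 2, 3, 1 and 0. Such counts are too few to order the tumors. The 5 genes krt8, krt18, krt4, krt94 and krt93 instead had their highest value in tumor 6. Within the BRAF(V600E) tumors, 7 keratins were lowest in tumor 7, among them krt5, krt91 and krt15, and krt4 was highest there. Another of the 7, cyt1, had 41 counts over the BRAF(V600E) tumors. The share of all genes with each of these orders of tumors was not determined. These counts of keratins therefore do not set them apart from other genes. With tumors 2 and 3 left out, an alternative chosen after the data were seen, all 8 tested skin keratins were still lower in CCDC6-RET tumors. Apart from krt4 and krt5 they were tested only through the BRAF(V600E) tumors, so their lower calls were close to fixed in advance. Over all genes, 7208 of 19429 tested were lower in this alternative. The 9 genes that were higher in tumors 2 and 3 had larger decreases in this alternative, which follows from leaving those tumors out. Their log2 fold changes ran from -5.97 for krt222 to -11.39 for krt1-19d, with -10.30 for krt5, -10.15 for krt17 and -10.27 for krt91. In tumors 5 and 6, krt1-19d had 1 and 0 counts, krt17 2 and 2, and krt222 3 and 2. These are too few to fix the size of their fold changes. krt5 had 160 and 85 counts there. krt4 stood at -2.22.

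Ratios between members covered a wider range in CCDC6-RET tumors. The number of krt91 counts for each krt5 count was 0.621, 2.19, 0.331 and 0.765 in CCDC6-RET tumors 2, 3, 5 and 6, against 0.480, 0.459, 0.487, 0.481 and 0.612 in BRAF(V600E) tumors 1, 2, 3, 6 and 7. For krt15 the ratio to krt5 ran between 0.184 and 2.05 in CCDC6-RET tumors and between 0.296 and 0.696 in BRAF(V600E) tumors. In CCDC6-RET tumor 3, krt15 and krt91 thus each outnumbered krt5 in counts. In tumor 6 krt15 did so narrowly, at 1.07. Neither gene outnumbered krt5 in any BRAF(V600E) tumor. The ratios in CCDC6-RET tumors 5 and 6 rest on few counts, between 36 and 160 per gene.

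Keratins together made up 0.954%, 0.513%, 0.429% and 1.39% of all counts in CCDC6-RET tumors 2, 3, 5 and 6, against 3.54%, 4.42%, 3.76%, 3.47% and 2.25% in BRAF(V600E) tumors 1, 2, 3, 6 and 7. The mean was 0.822% ± 0.444 in CCDC6-RET tumors and 3.49% ± 0.785 in BRAF(V600E) tumors (SD, n = 4 and 5, exact two-sided permutation test p = 0.0159, adjusted 0.0223). The groups did not overlap. Counting error was small beside this spread, with Wilson 95% intervals no wider than 0.0122 points to either side, though reads without molecular identifiers are not independent molecules and the intervals cover counting error only.

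The make-up of that keratin fraction was nearly opposite. krt8 and krt18 held 89.0%, 78.2%, 90.4% and 91.5% of the keratin counts in CCDC6-RET tumors 2, 3, 5 and 6, against 11.5%, 6.15%, 9.996%, 8.94% and 19.02% in BRAF(V600E) tumors 1, 2, 3, 6 and 7 (Wilson 95% intervals within 0.384 points of each value). They averaged 87.3% ± 6.14 in CCDC6-RET tumors and 11.1% ± 4.83 in BRAF(V600E) tumors (SD, n = 4 and 5, exact permutation test p = 0.00794, adjusted 0.0185). In BRAF(V600E) tumors krt5, krt91, krt15 and krt4 held on average 38.7%, 19.1%, 14.4% and 12.1% of the keratin counts, and in CCDC6-RET tumors krt8, krt18 and krt4 held 47.2%, 40.03% and 10.01%. Those 3 genes together held 97.3% ± 2.58 of the keratin counts in CCDC6-RET tumors and 23.2% ± 9.25 in BRAF(V600E) tumors.

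**Figure D3:**
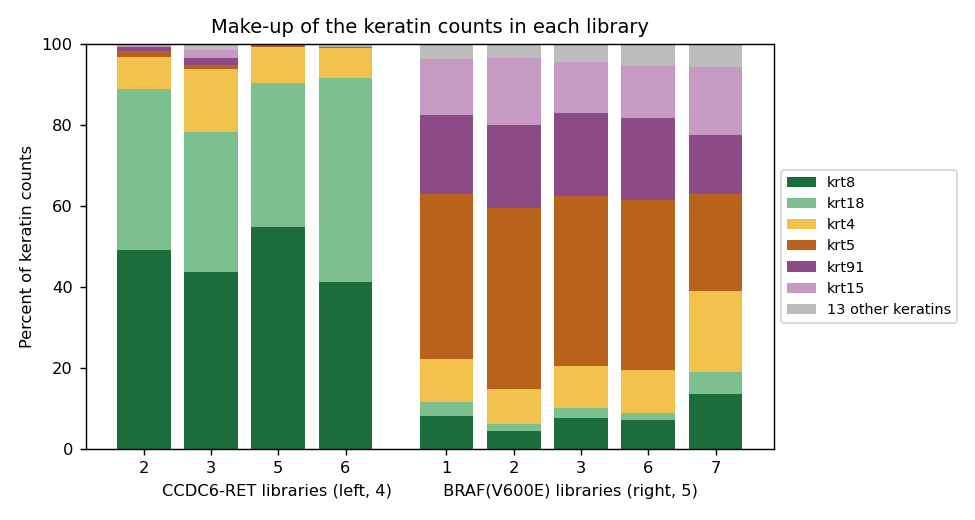
Percent of the keratin counts held by each of 6 keratins and by the 13 others in each library, CCDC6-RET tumors left of BRAF(V600E) tumors. The green krt8 and krt18 segments sum to between 78.2% and 91.5% in CCDC6-RET tumors and to between 6.15% and 19.02% in BRAF(V600E) tumors.

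Set against all counts, the skin keratins differed and the simple keratins did not pass the test. Skin keratins were 0.0808% ± 0.0287 of all counts in CCDC6-RET tumors and 1.86% ± 0.505 in BRAF(V600E) tumors (exact permutation test p = 0.0159, adjusted 0.0223). The simple keratins were 0.728% ± 0.422 of all counts in CCDC6-RET tumors and 0.358% ± 0.0658 in BRAF(V600E) tumors, a difference that did not pass (exact permutation test p = 0.0556, adjusted 0.0649). CCDC6-RET tumors 2 and 6 lay above every BRAF(V600E) tumor in this measure and tumors 3 and 5 lay within their range.

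For the share of type I keratins among all keratin counts no difference was detected. Types were taken from the human ortholog that the table names beside each gene, a choice made after the data were seen, and krt1-c5, which has none there, was left out. Type I genes held 41.5%, 39.8%, 35.8% and 51.1% of keratin counts in CCDC6-RET tumors, against 40.6%, 42.3%, 39.7%, 40.3% and 42.5% in BRAF(V600E) tumors. The average was 42.1% ± 6.47 in CCDC6-RET tumors and 41.1% ± 1.24 in BRAF(V600E) tumors (SD, n = 4 and 5, exact permutation test p = 0.786), a difference of 0.983 points. The type II gene krt5 held on average 38.7% of keratin counts in BRAF(V600E) tumors and 0.676% in CCDC6-RET tumors. Leaving it out therefore raises the type I share mainly in BRAF(V600E) tumors. The difference was then -25.5 points (exact permutation test p = 0.0159), which repeats the difference in krt5.

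Most keratins lie in 4 gene groups, and the groups were not uniform. On chromosome 19, 7 keratins lie within 56.1 kb, and the 6 of them that could be tested were all lower. The 3 tested of 4 keratins on chromosome 11 and all 3 on chromosome 22 were lower too. Of the tested keratins on these chromosomes, krt91, krt15 and krt94 alone had enough counts in either tumor type. For the others a lower call was close to fixed in advance. Over all tested genes 38.2% were lower. On chromosome 23, krt5 was lower, krt8, which starts 72.2 kb further along, did not pass the test, and krt18, another 93.6 kb on, was higher. On chromosome 6, krt4 was lower and krt18b, 47.4 kb away, was higher. The gene models of 7 keratins (cyt1, cyt1l, krt17, krt91, krt92, krt96 and krt97) overlap that of another keratin, so how reads were divided among them is uncertain.

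**Figure D4:**
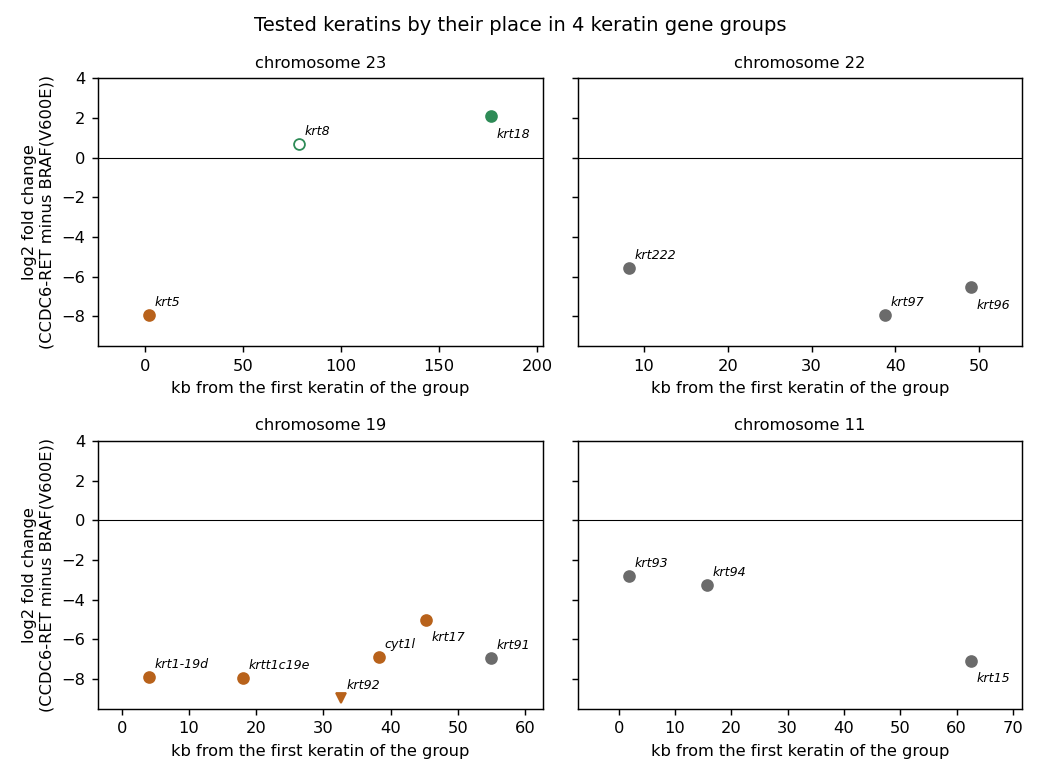
Log2 fold change (CCDC6-RET minus BRAF(V600E)) of the tested keratins against distance in kb from the first keratin of each of 4 chromosomal groups; the triangle is the upper bound of krt92 and the open circle is krt8. The chromosome 19, 11 and 22 points all lie below 0, and on chromosome 23 krt5 lies at -7.95, krt8 at 0.70 and krt18 at 2.09.

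Other skin cell genes were lower in the same libraries. Of 24 tested keratinocyte genes other than keratins, 19 were lower, 3 higher and 2 not called. Of all tested genes, 38.2% were lower and 33.9% higher. The median log2 fold change of the keratinocyte list was -5.42. Several of the lower genes had too few counts in CCDC6-RET tumors to be tested without the BRAF(V600E) tumors. For them a lower call was close to fixed in advance, and they enter this median too. The 3 with the highest CPM were icn, cfl1l and anxa1a. icn, a calcium-binding protein of fish skin, had 3227 ± 668 CPM in CCDC6-RET tumors and 2510 ± 282 CPM in BRAF(V600E) tumors (log2 fold change 0.36 ± 0.16, edgeR adjusted p = 0.0668). The cofilin-like actin regulator cfl1l had 943 ± 190 CPM in CCDC6-RET tumors against 635 ± 110 CPM in BRAF(V600E) tumors (log2 fold change 0.57 ± 0.18, edgeR adjusted p = 0.0151), and the membrane-binding protein gene anxa1a had 215 ± 189 CPM in CCDC6-RET tumors against 829.7 ± 106 CPM in BRAF(V600E) tumors (log2 fold change -1.95 ± 0.66, edgeR adjusted p = 0.0227). The other two higher genes, named after their values were seen, were lama5 (log2 fold change 1.55 ± 0.34), a laminin of many basement membranes, and krtcap2 (1.44 ± 0.13), which encodes a subunit of a protein glycosylation enzyme. Members that were lower, such as perp and anxa1a, are likewise known from other epithelia. The direction for icn and cfl1l turned with scaling on ribosomal protein genes, to -0.21 and -0.01.

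Named after their values were seen, tp63, the transcription factor of basal keratinocytes, had 6.07 ± 2.27 CPM in CCDC6-RET tumors and 193 ± 53.1 CPM in BRAF(V600E) tumors (log2 fold change -4.98 ± 0.32), and col17a1a, a collagen of the hemidesmosomes to which basal keratin filaments anchor, had 2.16 ± 1.26 CPM in CCDC6-RET tumors against 278 ± 65.0 CPM in BRAF(V600E) tumors (log2 fold change -6.97 ± 0.41). Summed over the list, keratinocyte genes were between 0.408% and 0.571% of counts in CCDC6-RET tumors and between 0.747% and 1.012% in BRAF(V600E) tumors. Most of the CCDC6-RET sum came from icn and cfl1l, neither of which was lower there, so it says little about the genes that were lower. No gene of the list was at 0 in all CCDC6-RET tumors. The part of these cells in the keratin result was not tested.

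Markers of other tissues were lower as well. All 18 tested skeletal muscle genes (median log2 fold change -7.61), all 12 ionocyte genes (median -8.24), all 12 white blood cell genes (median -3.53) and 9 of 10 red blood cell genes (median -4.29) were lower in CCDC6-RET tumors. Of 6 tested genes of mucous and other skin secretory cells, 5 were lower and 1, xbp1, was higher (median -6.55). Many genes of these lists had too few counts in CCDC6-RET tumors to be tested without the BRAF(V600E) tumors. For them a lower call was close to fixed in advance, and they enter the medians too. Of all tested genes, 38.2% were lower and 33.9% higher. Muscle genes summed to between 0.00217% and 0.00676% of counts in CCDC6-RET tumors and to between 0.578% and 1.91% in BRAF(V600E) tumors. For ionocyte genes the sums were 0.00381% to 0.00465% in CCDC6-RET tumors and 0.229% to 0.361% in BRAF(V600E) tumors, with foxi3b at 0 in all CCDC6-RET tumors. Of 12 tested thyroid follicular cell genes, 10 were higher and none lower, with a median of 4.12, among them the thyroid transcription factor gene pax2a at 1345 ± 500.1 CPM in CCDC6-RET tumors and 18.4 ± 10.5 CPM in BRAF(V600E) tumors. Thyroglobulin (tg) had 19229 ± 7672 CPM in CCDC6-RET tumors against 9851 ± 7510 CPM in BRAF(V600E) tumors and did not pass (edgeR adjusted p = 0.141). Some thyroid genes, in turn, had too few counts in BRAF(V600E) tumors to be tested without the CCDC6-RET tumors. How far these tissues take part in the keratin result was not tested.

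Of 16 tested desmosome and plakin genes, which tie keratin filaments to the cell surface, 11 were lower, 2 higher and 3 not called (median log2 fold change -1.58). Some of the lower genes, perp among them, are also in the keratinocyte list. A few others had too few counts in CCDC6-RET tumors to be tested without the BRAF(V600E) tumors. The desmosomal linker genes dspa and jupa did not pass, at -0.25 ± 0.24 and -0.14 ± 0.22, and the desmosomal membrane protein gene perp was lower at -0.94 ± 0.23 (edgeR adjusted p = 0.00424). Scaled on ribosomal protein genes, 14 desmosome and plakin genes were lower, dspa and jupa among them, and 1 was higher. Over all tested genes 72.1% passed, against 13 of these 16.

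Of 22 tested genes for junctions shared by many epithelia, 10 were lower, 5 higher and 7 not called, with a median of -0.58, a share of calls near the 72.1% of all tested genes. A few of the called genes had too few counts in the tumor type where they were low to be tested on it alone. Scaled on ribosomal protein genes, 14 were lower and 2 higher. The adhesion gene cdh1, which encodes E-cadherin, had 655 ± 210 CPM in CCDC6-RET tumors and 345 ± 62.7 CPM in BRAF(V600E) tumors (log2 fold change 0.93 ± 0.22, edgeR adjusted p = 0.00372), but did not pass when scaled on ribosomal protein genes (0.30, edgeR adjusted p = 0.164). The epithelial adhesion gene epcam (0.73 ± 0.38) and the claudin gene cldnb (-0.09 ± 0.40) did not pass.

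Of 14 tested other intermediate filament genes, 6 were higher, 5 lower and 3 not called, close to the 33.9% higher and 38.2% lower of all tested genes. Some of the called genes, in either direction, had too few counts in the tumor type where they were low to be tested on it alone. For them the direction of the call was close to fixed in advance. Scaled on ribosomal protein genes, 4 were higher and 6 lower. vim, the filament of mesenchymal cells, had 251 ± 98.9 CPM in CCDC6-RET tumors and 38.5 ± 12.4 CPM in BRAF(V600E) tumors (log2 fold change 2.704 ± 0.31, edgeR adjusted p = 4.34e-05). The nuclear lamins lmna and lmnb2 were higher as well, at 0.88 ± 0.21 and 1.26 ± 0.15, though lmna did not pass when scaled on ribosomal protein genes (0.31, edgeR adjusted p = 0.268).

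**Figure D5:**
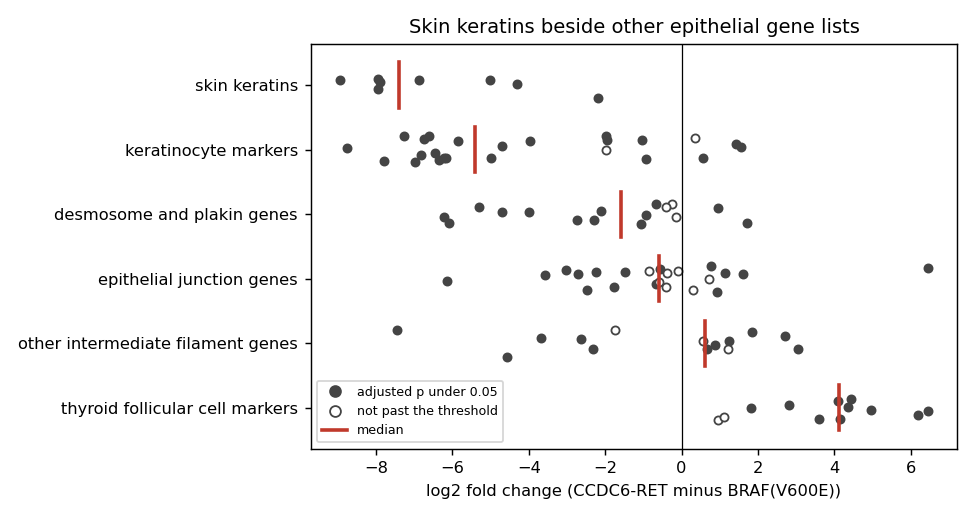
Log2 fold change (CCDC6-RET minus BRAF(V600E)) of each tested gene in the skin keratin list and 5 other lists, filled where the edgeR adjusted p is under 0.05, with the list median as a red bar; vertical scatter only separates points. Medians run from -7.39 for skin keratins and -5.42 for keratinocyte genes to -0.58 for epithelial junction genes and 4.12 for thyroid follicular cell genes.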

How the data were processed

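RNA was sequenced from 9 zebrafish thyroid tumors, 4 CCDC6-RET and 5 BRAF(V600E), as 50 bp paired-end TruSeq libraries per the labels. The deposited table holds raw counts per gene made by the authors from reads aligned to GRCz10. The submitters' processing notes name STAR version 2.3 and DESeq2. The study's methods give a later STAR version for these tumors, a conflict not settled here. For sequencing, those methods give a number of cycles and no read length. The counting tool, its strand setting and the annotation are not given in the sources used here. The table also carries 9 size-factor normalized sample columns, and the authors' comparison columns with mean levels, fold changes and p-values; none of these was used. Groups came from the sample titles.

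Counts were filtered (filterByExpr, minimum count 10), scaled by TMM and tested with edgeR 4.0.16 (quasi-likelihood, robust; R 4.3.3) over 18453 genes, with Benjamini-Hochberg adjustment at 0.05. CPM uses the TMM-scaled library sizes. Shares of counts were compared by exact two-sided permutation over samples. The krt18 to krt8 ratio and the share of krt8, krt18 and krt4 together were not planned measures. Nor were the shares of skin keratins and of simple keratins in all counts. With 3 counts as the floor, folds against libraries at 0 are lower bounds. Every keratin of the symbol rule is accounted for. Further keratin-like genes lie outside it, and not all of them are reported. Values per library are given for simple and skin keratins, for the 4 other keratins with the highest CPM and for the largest changes. At most 3 genes of each other list, those with the highest CPM, are named. Exceptions are lama5, krtcap2, tp63, col17a1a and foxi3b, which were chosen after their values were seen. Members and lists were chosen with earlier results of these data known. A few genes are shared between lists. Typing by protein identity was not run, and the ortholog named in the table was used. Alternatives were DESeq2 1.42.0, limma 3.58.1 (voom), 2 other scalings, no filter, each library left out and a replicate block. Replicate numbers 2, 3 and 6 occur in both groups, and no shared deviation of same-numbered libraries was detected.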

Additional observations from a re-analysis of the deposited data

Results flagged for a closer look

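krt95 had 16.9 CPM in BRAF(V600E) tumor 6 and 0 in the other 4 BRAF(V600E) tumors, farther from them than Dixon's 95% limit. It was the single case among 49 sets of values examined, and chance passes this limit in about 1 set in 20, or 5%.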

How the results depend on the processing

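Of the fold changes of single keratins under alternative analyses, 294 kept their direction and their side of the threshold, 2 passed newly (both krt8) and 10 lost significance (7 krt93, 3 krt18b). None reversed. Over the libraries left out in turn, keratins lower in CCDC6-RET tumors numbered 14 to 15, skin keratins lower 8 to 8 and keratins higher 1 to 2, with 2 without CCDC6-RET replicate 3 or 5. Most of the lower keratins were tested only through the BRAF(V600E) tumors, so their lower calls were close to fixed in advance. Over all genes, those lower numbered between 6412 without BRAF(V600E) replicate 6 and 7346 without CCDC6-RET replicate 6. The difference in keratin share of counts ran from -2.97 to -2.43 points, that in simple share of keratin counts from 74.7 to 79.2 points, and that in type I share from -2.02 to 3.06 points, with -25.5 points without krt5. With the replicate block over the pairs 2, 3 and 6, the keratin share differed by -2.93 points and the simple share by 77.9 points (exact sign-flip p = 0.25 each, the smallest that 3 pairs allow). No pairing by number was detected: same-numbered libraries correlated at 0.03, 0.01 and -0.04, and differently numbered ones between -0.04 and 0.04. With 3 such pairs this check cannot decide whether the numbers mark shared handling. Scaling on ribosomal protein genes gave 3024 genes higher and 8968 lower over all genes, 25.2% higher of all calls, against 47.0% with TMM (6255 higher and 7043 lower). The all-gene median was -0.09 with TMM, -0.19 with DESeq2-type size factors and -0.40 in DESeq2. Depth limits krt92, krt95, cyt1, krt1-c5, cyt1l and krt96, each with 6 or fewer counts over the CCDC6-RET tumors.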

Other observations

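Keratin-like genes outside the symbol rule held some uneven values. si:ch211-156l18.7, which ends 6.03 kb before krt95 starts on chromosome 11, had 10.17, 0, 46.5 and 3.42 CPM in CCDC6-RET tumors 2, 3, 5 and 6. Among BRAF(V600E) tumors it was counted in tumor 6 alone, with 62 counts or 4.34 CPM. That tumor was also the single library with reads of krt95. Its log2 fold change of 4.03 ± 1.65 passed narrowly (edgeR adjusted p = 0.0493), with no read in CCDC6-RET tumor 3.

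si:dkey-222f2.1 on chromosome 22 had 0.452, 20.9, 0.162 and 0.0950 CPM in CCDC6-RET tumors 2, 3, 5 and 6, against a range of 1.02 to 2.25 CPM in BRAF(V600E) tumors, so CCDC6-RET tumor 3 alone was above them. Tumor 3 was also the CCDC6-RET tumor with the most krt15 and krt91. zgc:171226, named krt98 in the gene name table, lies beside krt15 on chromosome 11. It had 0.603, 2.95, 0 and 0 CPM in CCDC6-RET tumors, against 328, 236, 249, 298 and 402 CPM in BRAF(V600E) tumors (log2 fold change -8.58 ± 0.99, edgeR adjusted p = 4.65e-05). It was highest in BRAF(V600E) tumor 7, where krt5, krt91 and krt15 were lowest.

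Another KRT18-type gene (ENSDARG00000058332), next to krt18 on chromosome 23, had 18 counts over the CCDC6-RET tumors and 6 over the BRAF(V600E) tumors, too few to test. zgc:92380, for which the table also names KRT18 as the human ortholog, went the other way from krt18: it had 7.55 ± 4.49 CPM in CCDC6-RET tumors and 97.5 ± 16.7 CPM in BRAF(V600E) tumors (log2 fold change -3.69 ± 0.52, edgeR adjusted p = 1.63e-04).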
